A study of Mus musculus with 79 samples.

Results

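Immediate early genes are the first genes that a cell transcribes after a stimulus, before any protein has been made in response. Growth factors, calcium entry, stress and synaptic activity reach them through kinases (ERK, p38, PKA and CaMK), which act on factors already bound at their promoters, chiefly serum response factor (SRF) with its ternary complex partners on CArG boxes and CREB on cyclic AMP response elements (CRE). Their transcripts are short lived, and in the suprachiasmatic nucleus (SCN), the hypothalamic site of the central circadian clock, Fos and Egr1 are widely used as marks of neuronal activity and of the response to light. Of 25083 gene names listed across 6 expression tables, 10 members were followed here, found by symbol in every table: the AP-1 subunits Fos, Fosb, Jun and Junb, the zinc-finger factors Egr1, Egr2 and Klf4, the neuronal bHLH-PAS factor Npas4, the orphan nuclear receptor Nr4a1 and Arc, which acts at synapses.

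The 79 mouse libraries came from 3 experiments on AHCY, the only mammalian enzyme known to hydrolyse S-adenosylhomocysteine, which forms when methyl groups are transferred and blocks further transfer. In the first, wild-type (WT) and AHCY null (KO) mouse embryonic fibroblasts (MEF) on a C57BL/6J background, the KO lines made by CRISPR-Cas9 editing, were harvested every 4 h from circadian time (CT) 12 to CT32, hours counted from the dexamethasone pulse, with 3 libraries per group. In the second, MEF received DZnep (3-deazaneplanocin A), which inhibits AHCY, or its vehicle DMSO, and 3 libraries of each arm were made at each of CT12 and CT24; the dose and the time of addition are not in the labels used here. All fibroblasts were confluent, grown in medium with fetal bovine serum, and had all been exposed for 1 h to the glucocorticoid dexamethasone at 100 nM, which aligns their clocks. In the third, C57BL/6 mice aged 10 weeks were infused in the hypothalamus with saline or DZnep and SCN punches were taken at CT3, CT9, CT15 and CT21, in 4 libraries a group, except saline CT21, which has 3. The replicates are called biological in the labels, without naming clones or animals, so p-values measure the spread between these libraries, and loss of AHCY cannot be told apart from other differences between the WT and KO lines.

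Values are TPM, which count transcripts as a share of the library after dividing by length, in the WT and KO tables and FPKM, fragments per length and library, in the others. Read counts are not in these tables, so depth is unknown, and levels were compared only within an experiment. In the first experiment the library sums lay between 970075 and 980677 TPM. Ahcy was 131 to 214 TPM in the WT libraries and 2.21 to 4.74 TPM in the KO libraries. Summed fibroblast markers were 7422 to 10612 TPM in WT, 5735 to 6711 TPM in KO, 3776 to 4534 FPKM with DMSO and 2202 to 2399 FPKM with DZnep. All 8 neuron markers were at 1 FPKM or more in every SCN library, with sums of 498 to 804. In such bulk samples fewer cells of a type and less RNA per cell cannot be told apart. Libraries that stood apart were 6 WT or KO libraries and 1 DMSO library with Malat1, a nuclear RNA, over 2 times the median of their arm, WT CT20 with skeletal muscle markers summing to as much as 499 TPM, and 1 saline SCN library at CT9 with macrophage markers summing to 1088 FPKM.

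Because the members are switched through their promoters, windows of 300 bases (RefSeq, GRCm38.p6) were searched for 8 members and are shown for 5. Each runs from 250 bases before the start site to 50 from the start site on. Fos, Egr2 and Nr4a1 share a WT maximum at CT24, and in fibroblasts given DZnep the largest fall was in Npas4 and the largest rise in Klf4. Capitals mark a CArG box, the CRE core TGACGT or its reverse complement, and the EGR site GCGNGGGCG or its reverse complement. The windows are chr12:85473640-85473939 (plus strand), chr10:67537619-67537918 (plus), chr15:101266596-101266895 (plus), chr19:4989922-4990221 (minus) and chr4:55532426-55532725 (minus), written 5′ to 3′ on the strand of the gene.
Fos: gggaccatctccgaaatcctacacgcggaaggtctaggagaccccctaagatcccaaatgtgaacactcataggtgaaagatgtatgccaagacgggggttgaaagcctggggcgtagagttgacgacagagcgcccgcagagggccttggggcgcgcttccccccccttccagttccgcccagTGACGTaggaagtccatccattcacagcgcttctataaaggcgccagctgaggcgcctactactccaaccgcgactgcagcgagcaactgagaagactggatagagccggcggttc
Egr2: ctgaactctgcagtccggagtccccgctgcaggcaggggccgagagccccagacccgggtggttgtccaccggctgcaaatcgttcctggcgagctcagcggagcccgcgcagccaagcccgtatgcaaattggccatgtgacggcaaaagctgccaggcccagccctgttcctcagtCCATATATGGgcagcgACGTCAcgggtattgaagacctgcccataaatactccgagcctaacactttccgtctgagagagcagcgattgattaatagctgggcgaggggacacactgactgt
Nr4a1: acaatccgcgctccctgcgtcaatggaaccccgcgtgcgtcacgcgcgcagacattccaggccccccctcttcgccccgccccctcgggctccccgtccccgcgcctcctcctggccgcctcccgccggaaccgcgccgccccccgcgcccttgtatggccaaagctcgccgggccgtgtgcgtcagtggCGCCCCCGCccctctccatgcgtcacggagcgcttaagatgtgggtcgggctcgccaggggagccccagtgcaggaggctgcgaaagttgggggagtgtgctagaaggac
Npas4: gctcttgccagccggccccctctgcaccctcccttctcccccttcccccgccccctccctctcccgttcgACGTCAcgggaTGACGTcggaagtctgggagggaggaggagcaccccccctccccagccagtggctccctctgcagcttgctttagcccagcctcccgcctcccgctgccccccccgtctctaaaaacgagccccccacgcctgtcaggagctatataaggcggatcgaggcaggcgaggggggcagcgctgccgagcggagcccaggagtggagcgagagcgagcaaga
Klf4: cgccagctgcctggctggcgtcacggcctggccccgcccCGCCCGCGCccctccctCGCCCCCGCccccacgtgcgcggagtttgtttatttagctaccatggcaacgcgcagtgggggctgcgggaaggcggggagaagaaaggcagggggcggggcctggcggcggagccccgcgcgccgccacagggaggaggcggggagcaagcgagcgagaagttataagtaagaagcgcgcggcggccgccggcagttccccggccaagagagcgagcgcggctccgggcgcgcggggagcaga

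The Fos window holds 1 CRE core, 66 to 61 bases before the start, and no CArG box. Sites farther than 250 bases before a start lie outside the windows and were not searched. Of 5 windows listed for Egr2, 3 that overlap one another hold both a CArG box and a CRE core, 1 a CArG box alone and 1 neither. The one shown holds a CArG box 72 to 63 bases before the start and a CRE core 56 to 51 bases before it. Npas4 holds 2 CRE cores, and an EGR site, the binding motif of the EGR factors themselves, occurs once for Nr4a1 and at 2 positions for Klf4. Among 32851 windows of the same length in the table, 1.63% hold a CArG box, 7.51% a CRE core, 5.55% an EGR site and 7.81% the AP-1 site TGANTCA, all searched on both strands. No AP-1 site occurred in the 12 windows of the 8 members searched. Promoters of Egr1 and Arc were not searched, so nothing is said here of their sites. A match describes letters, and no binding was measured here.

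In the annotation (GRCm38, GENCODE), the members lie on 8 chromosomes. Jun, on chromosome 4 from 95049034 to 95052222, overlaps the antisense gene Junos, and Junb, on chromosome 8 from 84974484 to 84978718, overlaps Prdx2 on the opposite strand. Whether counting used strand is not given in the sources, and reads from where these pairs overlap cannot be told apart.

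In WT fibroblasts, 5 members had their highest mean at CT24. Fos, the AP-1 subunit that stands as the classic immediate early gene, was 9.28, 8.59 and 9.54 TPM in the CT24 libraries and 1.96 to 2.82 TPM in the other 15 WT libraries. The groups did not overlap, and the CT24 mean of 9.14 ± 0.49 TPM (SD, n = 3) was 3.42 to 4.56 times the means of the other times. In KO fibroblasts the CT24 values were 1.29, 2.13 and 2.52 TPM, and the other 15 KO libraries ran from 1.42 to 3.14 TPM, so that 1 CT24 library lay below them and the others among them.

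Egr1, a zinc-finger factor induced through SRF, was 128, 133 and 126 TPM in WT at CT24 and 22.2 to 55.9 TPM at the other WT times. Its mean of 129 ± 3.8 TPM (SD, n = 3) was 2.37 to 5.18 times those of the other times. In KO fibroblasts Egr1 was highest 8 h earlier, at CT16, with 82.4, 91.1 and 88.0 TPM, against 66.6, 76.2 and 79.9 TPM at CT24. The CT16 libraries lay above every other KO library, and every KO library lay below the WT libraries of CT24. At CT16, CT20, CT28 and CT32 the KO libraries lay above the WT libraries of the same time.

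Egr2, a relative of Egr1, was 4.728, 5.002 and 4.991 TPM in WT at CT24. It was next highest at CT12, with 3.20, 2.96 and 3.08 TPM, and lowest at CT32, with 0.93, 1.18 and 0.86 TPM. These groups did not overlap, whereas the 18 KO libraries ran from 0.79 to 1.61 TPM at all times. Junb, an AP-1 subunit that can restrain Jun, was 132, 143 and 141 TPM in WT at CT24, above the 83.2 to 114 TPM of the other WT times, and 43.2 to 67.2 TPM in KO. Nr4a1, a nuclear receptor that needs no known ligand, was 28.1, 27.5 and 26.6 TPM in WT at CT24 and still 21.1, 20.7 and 21.3 TPM at CT28, against 9.98 to 16.9 TPM at the other times. KO Nr4a1 stayed between 19.0 and 24.6 TPM.

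Npas4 and Fosb climbed through the WT series instead. Npas4, which neurons induce on calcium entry, was 2.71, 2.95 and 2.65 TPM at CT12, 4.38, 4.83 and 4.32 TPM at CT24 and 7.20, 7.07 and 8.86 TPM at CT32, a 2.78-fold ratio of the last mean to the first. Fosb, whose product pairs with Jun proteins as Fos does, was 0.83, 0.89 and 0.99 TPM at CT12 and 2.34, 2.30 and 2.25 TPM at CT32, a ratio of 2.55. In both genes the first and last WT groups did not overlap. In KO fibroblasts Npas4 ran from 3.18 to 4.94 TPM and Fosb from 0.64 to 1.21 TPM.

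Arc, a synaptic gene also listed in fibroblasts, ran the other way in WT, from 1.89, 2.30 and 1.89 TPM at CT12 to 0.63, 0.56 and 0.97 TPM at CT32, with 1.76, 1.54 and 1.77 TPM at CT24. KO Arc was 0.83 to 1.35 TPM at all times. Jun, the main partner of Fos, was 89.4, 89.1 and 92.2 TPM in WT at CT12 and 66.9 to 85.2 TPM afterwards. KO Jun lay above all of these, at 116 to 139 TPM. Klf4, a growth-restraining factor and 1 of the pluripotency factors, was 23.1 to 30.2 TPM in WT and rose in KO from 5.75, 6.88 and 5.38 TPM at CT12 to 11.8, 10.6 and 9.65 TPM at CT32. The Klf4 groups of WT and KO did not overlap at any time.

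**Figure D1:**
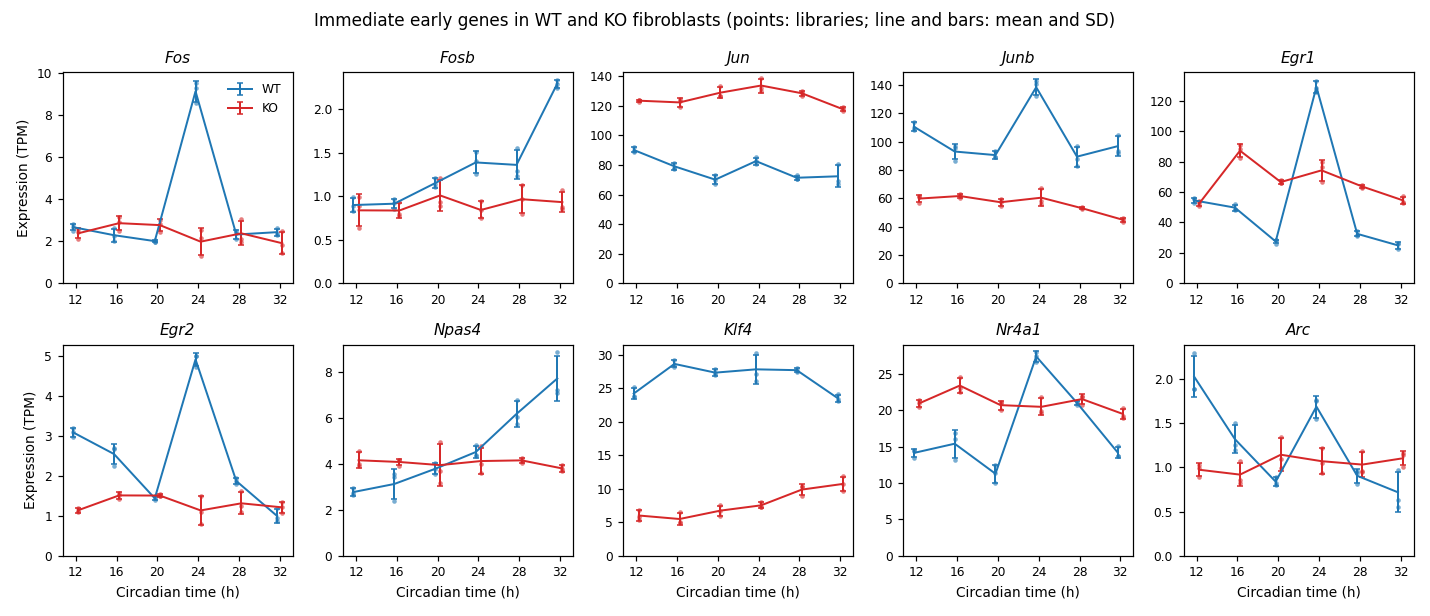
Deposited expression (TPM, linear axis) of the 10 members against circadian time in WT (blue) and KO (red) fibroblasts. Points are libraries, lines join group means and bars are SD (n = 3). The WT maxima of Fos (9.14 TPM) and Egr1 (129 TPM) stand at CT24, where KO means were 1.98 and 74.2 TPM.

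Changes over time were tested in limma as any difference among the 6 times on log2(TPM + 1), with Benjamini-Hochberg adjustment over 13603 genes and a threshold of 0.05. All 10 members passed in WT, where 69.5% of all tested genes did. In KO 7 passed against 42.7% of all genes, and Arc, Fosb and Npas4 did not (adjusted p of 0.61, 0.46 and 0.90). The smallest adjusted p in WT was that of Egr1, 2.5e-21, followed by Nr4a1 and Egr2, and the highest that of Klf4, 0.022. Klf4 missed the threshold when WT CT32 replicate 1 or 3 was left out (adjusted p of 0.067 and 0.077). It also missed it without the high-Malat1 libraries (0.076). In KO, Egr2 lay near the threshold (0.045) and missed it in 24 of 36 fits that left out 1 library, with TPM as deposited (0.057), without the filter on low values (0.059) and without CT12 or CT20 (0.10 and 0.17). Fos (0.028 in KO) missed it in 5 of these fits, without the high-Malat1 libraries (0.13) and without CT20 (0.073), and Nr4a1 (0.020) in 4. Without KO CT16 replicate 2 all 3 missed it (0.060, 0.076 and 0.086 for Fos, Egr2 and Nr4a1).

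The difference between the WT and KO courses passed for all 10 members, where 52.2% of all genes did. The adjusted p from limma was lowest for Egr1, 1.1e-16, and highest for Jun, 1.6e-05. Without CT24, an alternative chosen after seeing the data, the WT times still differed for 9 members, and Fos, with an adjusted p of 0.15, was the exception. Fos therefore rested on 1 time point, and time and harvest cannot be told apart within it. One of the CT24 libraries, WT replicate 2, had high Malat1 (1040 TPM against 263 and 371 TPM), and its Fos, Egr1, Egr2 and Nr4a1 values lay with those of the other two. A 24 h cosine was an alternative, although a course need not be a cosine and the times cover less than 24 h. By it 4 members passed in WT (Fos, Fosb, Npas4 and Nr4a1) and Klf4 alone in KO. The courses differed for 4 (Fosb, Klf4, Npas4 and Nr4a1). The shares of all genes called by the cosine or without CT24 were not recorded, so these counts are descriptions.

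Averaged over the 6 times, every member differed in level between KO and WT, 3 higher and 7 lower. The background was high, with 89.6% of all genes called, 42.6% higher and 47% lower in KO. On the log2(TPM + 1) scale Klf4 fell by 1.90 ± 0.03 (SE), Junb by 1.07 ± 0.03, Egr2 by 0.64 ± 0.04, Fos by 0.42 ± 0.05, Fosb by 0.38 ± 0.03, Npas4 by 0.28 ± 0.04 and Arc by 0.22 ± 0.03. Jun rose by 0.48 ± 0.02, Egr1 by 0.33 ± 0.02 and Nr4a1 by 0.13 ± 0.03, the last with the highest adjusted p of the 10 in limma, 7.1e-05. Summed astrocyte markers were 154 to 189 TPM in WT and 17.2 to 26.4 TPM in KO. Of the 5 markers in that list, 1 was at 1 TPM or more in every WT library and 3 in every KO library. The lower sum therefore does not describe each marker. Summed neuron markers were 22.6 to 32.3 TPM in WT and 11.6 to 17.2 TPM in KO. The part of either list in the result was not tested. The median over members was -0.33 and that over all genes -0.05. With TPM as deposited the median of all genes stood at 0.15, and the 10 members kept their direction. With quantile normalization Arc turned to 0.05 (adjusted p = 0.37) and Npas4 lost its call (-0.02, adjusted p = 0.69). Nr4a1 lost its call without CT20 (0.02, adjusted p = 0.40), the time at which the 7 skeletal muscle markers summed to 373 to 499 TPM in WT and 5.02 to 5.96 TPM in KO, and the part of these RNAs in the result was not tested.

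For several members an average over times hides opposite differences. The KO mean of Fos was 0.22 times the WT mean at CT24 and between 0.78 and 1.38 times it at the other 5 times. Without CT24 its level difference was -0.11 (adjusted p = 0.044 in limma) in place of -0.42, whereas Egr1 moved from 0.33 to 0.60. Egr1 in KO was 0.57 times WT at CT24 and 2.42 times WT at CT20. For Npas4 the ratio went from 1.499 at CT12 to 0.49 at CT32, and for Arc from 0.48 to 1.54. The mean of Klf4 in KO was 0.19 to 0.45 times that in WT at every time.

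**Figure D2:**
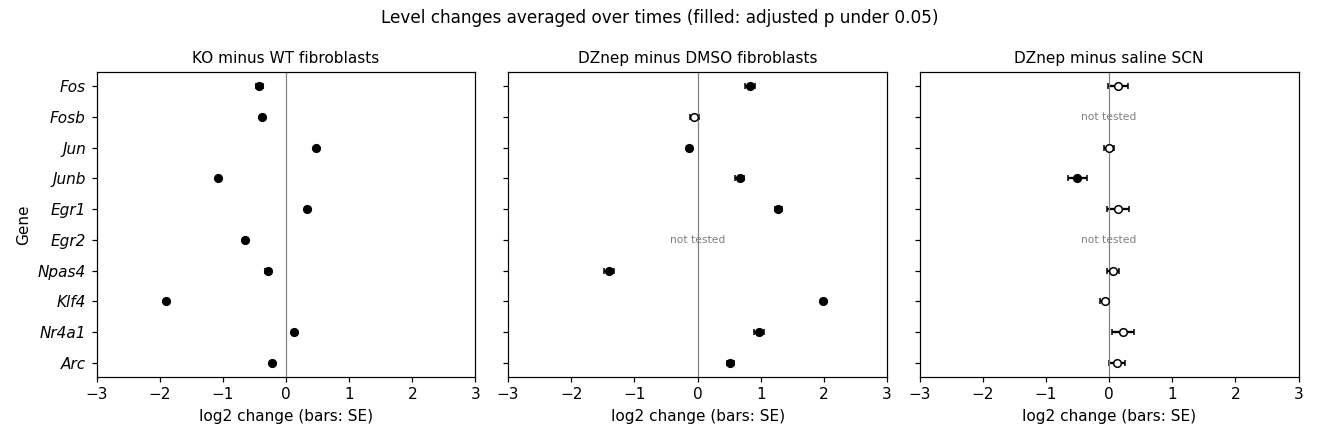
Difference in level, averaged over times, of each member in KO minus WT fibroblasts, DZnep minus DMSO fibroblasts and DZnep minus saline SCN, as log2 change on the log2(value + 1) scale. Points are limma estimates, bars SE, and filled points have an adjusted p under 0.05; members under the filter on low values are marked as not tested. Klf4 stands at -1.90 in KO and at 1.99 with DZnep in fibroblasts, and Junb is the filled point in the SCN (-0.51).

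Genes around the members in the same pathway moved in both directions in KO, where 89.6% of all genes were called, 42.6% higher and 47% lower. Of 30 other immediate early genes 28 were tested and 27 differed in level, 12 higher and 15 lower, with a median of -0.20. The anti-proliferative gene Btg2 fell by 2.63, the pseudokinase gene Trib1 by 1.40 and the stress gene Gadd45b by 1.34, and the neurotrophin gene Bdnf rose by 1.23. The list for negative feedback holds phosphatases and other brakes on the kinases, and also Nab1, Nab2, Nr3c1 and Tsc22d3. Of its 13 tested genes 10 were higher and 3 lower, with a median of 0.40. Dusp4, a nuclear MAP kinase phosphatase, rose by 2.60, the ERK pathway inhibitors Spry4 by 1.98 and Spry2 by 1.503, and Nr3c1, the glucocorticoid receptor, fell by 0.79. Of 12 genes for SRF cytoskeletal and YAP targets 10 were higher and 2 lower, with a median of 0.74. Among 20 upstream kinases and factors 17 differed, 10 higher and 7 lower, and Srf itself rose by 1.31.

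The time course of Fos over the 36 WT and KO libraries was, outside the members, most like that of Ier2, another immediate early gene (Pearson r of log2 values 0.84), then Zfp36, which encodes an mRNA decay factor (0.75), Errfi1, an inhibitor of the EGF receptor (0.68), the stress gene Ier3 (0.63) and B4galt5 (0.63). Only genes with a mean of 5 TPM or more were ranked, with predicted gene models left out. These libraries share times and lines, so the values are descriptions. Ier2 averaged 52.4 ± 3.5 TPM (SD, n = 3) in WT at CT24 and 19.0 to 33.3 TPM at the other WT times. Zfp36 averaged 34.1 ± 1.3 TPM at CT24 and 15.0 to 21.2 TPM at the others. Among the members r with Fos was 0.78 for Egr2, 0.64 for Junb, 0.62 for Egr1, 0.58 for Nr4a1 and 0.54 for Arc. It was 0.38 for Klf4, 0.34 for Fosb, 0.19 for Npas4 and -0.20 for Jun.

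In fibroblasts given DZnep, 6 members were higher than with DMSO and Npas4 was far lower. Klf4 was 8.37, 9.03 and 9.01 FPKM with DMSO at CT12 and 8.03, 7.94 and 8.07 FPKM at CT24. With DZnep it was 29.6, 30.7 and 31.6 FPKM at CT12 and 43.3, 48.5 and 46.3 FPKM at CT24. The groups did not overlap, and the DZnep means were 3.48 and 5.75 times the DMSO means.

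Egr1 was 10.9, 11.8 and 8.92 FPKM with DMSO at CT12 and 6.45, 6.79 and 6.57 FPKM at CT24, against 21.9, 22.1 and 23.9 FPKM and 22.0, 21.8 and 23.0 FPKM with DZnep. The ratio of means was 2.15 at CT12 and 3.37 at CT24, with no overlap. Fos was 0.75, 0.79 and 0.45 FPKM with DMSO at CT12 and 0.47, 0.52 and 0.47 FPKM at CT24. With DZnep it was 1.54, 2.28 and 1.82 FPKM, and 1.92, 1.67 and 1.88 FPKM, and again no library of one arm reached the other.

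The CT24 maxima of Egr1 and Fos in the WT series were not seen in the DMSO fibroblasts. Their Egr1 fell by 0.50 ± 0.08 (SE, log2(FPKM + 1)) from CT12 to CT24 (limma, adjusted p = 0.00061), and the Fos change was -0.12 ± 0.11 (adjusted p = 0.36). Nr4a1, also highest at CT24 in WT, rose by 0.74 ± 0.11 (adjusted p = 0.00037). The experiments were separate, with other control cells and units, and that contrast was not tested.

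Nr4a1 differed mainly at the earlier time. With DMSO it was 3.09, 3.01 and 2.32 FPKM at CT12 and 4.44, 5.18 and 5.33 FPKM at CT24, and with DZnep 10.6, 9.53 and 12.3 FPKM and 5.85, 7.29 and 7.58 FPKM. The ratio of means was 3.85 at CT12 and 1.39 at CT24, without overlap at either. Its CT24 call (0.35 ± 0.11, adjusted p = 0.021 in limma) was lost without DMSO replicate 1 or DZnep replicate 2 or 3 of that time, with adjusted p of 0.075, 0.067 and 0.080.

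Npas4 was 0.82, 0.79 and 0.81 FPKM with DMSO at CT12 and 3.49, 4.98 and 3.63 FPKM at CT24, a 5.01-fold rise of the mean. With DZnep it was 0.11, 0.12 and 0.20 FPKM at CT12 and 0.24, 0.22 and 0.09 FPKM at CT24. The DZnep mean was 0.17 times the DMSO mean at CT12 and 0.046 times it at CT24, and no DZnep library reached the lowest DMSO library. Fosb, the other member that climbed in WT, was 0.58, 0.37 and 0.69 FPKM with DMSO at CT12 and 1.09, 1.09 and 1.13 FPKM at CT24. With DZnep it was 0.42, 0.66 and 0.44 FPKM, then 1.19, 1.12 and 0.91 FPKM. The arms overlapped at both times while the times did not overlap.

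Junb was 36.7 to 43.2 FPKM with DMSO at CT12 and 26.3 to 36.6 FPKM at CT24, against 57.3 to 69.4 and 48.0 to 58.2 FPKM with DZnep. Arc was 0.30 to 0.62 FPKM with DMSO and 1.01 to 1.25 FPKM with DZnep over both times. In both genes the arms did not overlap at either time. Egr2 was 0.16 to 0.57 FPKM with DMSO and 0.67 to 0.96 FPKM with DZnep, and fell under the filter of 1 FPKM in at least 3 libraries. Jun was 24.1 to 33.0 FPKM with DMSO and 23.3 to 29.5 FPKM with DZnep, and its arms overlapped.

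**Figure D3:**
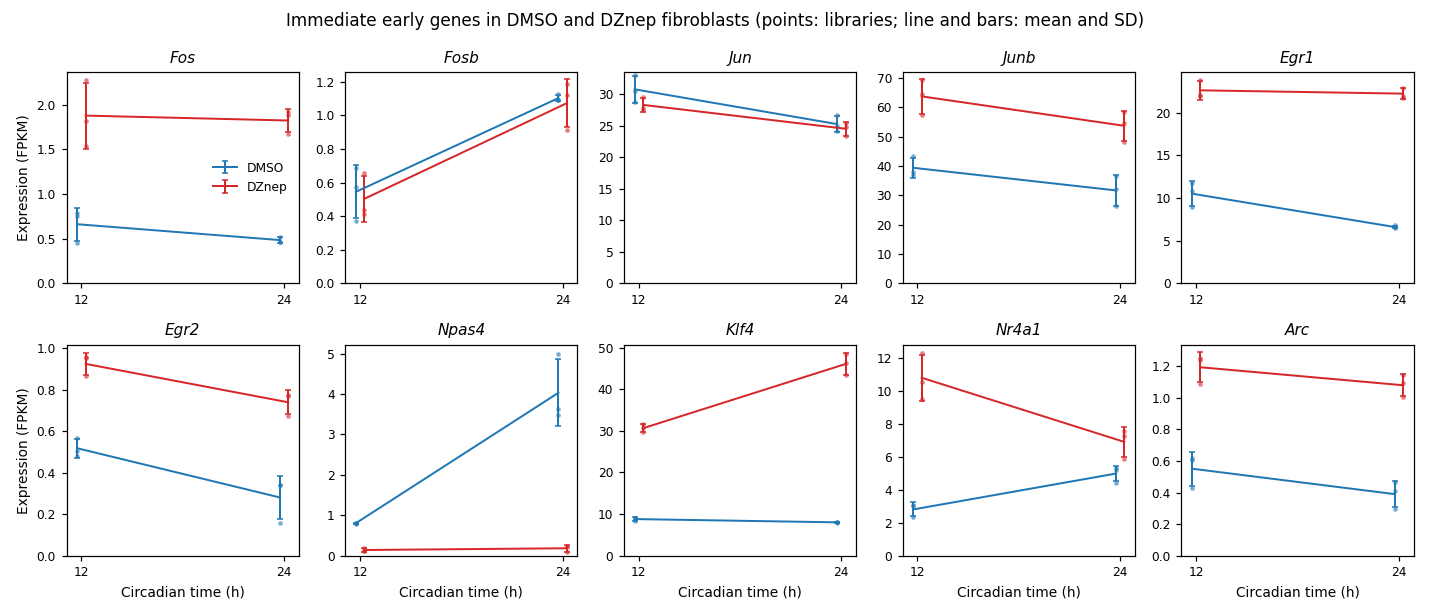
Deposited expression (FPKM, linear axis) of the 10 members at CT12 and CT24 in fibroblasts given DMSO (blue) or DZnep (red). Points are libraries, lines join group means and bars are SD (n = 3). Npas4 rose from 0.805 to 4.03 FPKM with DMSO and stayed at 0.141 and 0.184 FPKM with DZnep, while Klf4 means were 8.80 and 8.01 FPKM with DMSO and 30.6 and 46.1 FPKM with DZnep.

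In the fit of level, 9 members were tested and 8 called in limma, 6 higher and 2 lower, where 65.9% of all genes were called, 33.1% higher and 32.7% lower. The log2 changes were 1.99 ± 0.04 (SE) for Klf4, 1.28 ± 0.06 for Egr1, 0.97 ± 0.08 for Nr4a1, 0.83 ± 0.07 for Fos, 0.66 ± 0.08 for Junb and 0.52 ± 0.06 for Arc. Npas4 fell by 1.40 ± 0.08 and Jun by 0.13 ± 0.04. Fosb, at -0.05 ± 0.07, did not pass (adjusted p = 0.51), and Jun lost its call with FPKM as deposited (adjusted p = 0.17). Fos and Arc reached 1 FPKM only in DZnep libraries, and Npas4 only in the DMSO libraries of CT24, so these 3 entered the fit through the group in which they were high, and the count is no support of its own. At CT12, 8 members were called against 51.6% of all genes, and at CT24 7 were called against 56.6%.

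From CT12 to CT24 in DMSO, 5 members were called in limma, against 50.7% of all genes. Npas4 is among them only because it reached 1 FPKM in the 3 DMSO libraries of CT24, the group in which it was high. Fosb likewise reached 1 FPKM only at CT24, in 3 DMSO and 2 DZnep libraries. This count too is therefore no support of its own. Npas4 rose by 1.54 ± 0.11 (SE), Nr4a1 by 0.74 ± 0.11 and Fosb by 0.50 ± 0.10, and Egr1 and Jun fell. Without DMSO CT24 replicate 1 or replicate 2, the latter the library with high Malat1, 3 members were called. Npas4 then reached the filter value in too few libraries and Jun lost its call. The share of all genes called in these fits was not recorded. In DZnep 3 were called, against 37.2% of all genes: Klf4 rose by 0.66 ± 0.05, Fosb rose by 0.50 ± 0.10 and Nr4a1 fell by 0.50 ± 0.11. Fosb again entered only through CT24, where it was high, so its call and this count are given as a description.

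The change from CT12 to CT24 itself differed between DZnep and DMSO for 4 members, where 6.11% of all genes passed. Npas4 again entered through DMSO CT24, and its call and the count are given as a description. It was lower with DZnep for Npas4, by -1.47 ± 0.16 (SE; adjusted p = 0.00055 in limma), and for Nr4a1, by -1.23 ± 0.16 (adjusted p = 0.0017). It was higher for Klf4, by 0.69 ± 0.08 (adjusted p = 0.00056), and for Egr1, by 0.56 ± 0.12 (adjusted p = 0.019). Egr1 missed the threshold when any 1 of 5 libraries was left out, at an adjusted p of 0.051 to 0.060.

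Of 30 other immediate early genes 27 were tested and 22 differed with DZnep, 19 higher and 3 lower, with a median of 0.45 against 0.01 over all genes, of which 65.9% were called, 33.1% higher and 32.7% lower. Btg2 rose by 1.85, Plk2, a kinase gene, by 1.25, Gadd45b by 0.97 and Ier5 by 0.94. Btg2 and Gadd45b were thus lower in KO and higher with DZnep than in their controls, as Klf4, Junb and Fos were. Of 11 tested feedback genes 5 were higher and 5 lower. The MAP kinase phosphatase genes Dusp4 (1.85), Dusp6 (1.21) and Dusp1 (0.73) rose, and Dusp5 fell by 0.45. Of 20 upstream kinases and factors 4 were higher and 9 lower, and of 12 SRF cytoskeletal and YAP targets 8 were higher and none lower.

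In the SCN, Junb was the 1 tested member whose level differed between arms. Junb was 6.33, 7.21, 4.15 and 7.20 FPKM in saline mice at CT3 and 3.15, 3.16, 3.55 and 1.05 FPKM in DZnep mice. These groups did not overlap, and the DZnep mean of 2.73 ± 1.1 FPKM (SD, n = 4) was 0.44 times the saline mean of 6.22 ± 1.4 FPKM. At CT9 saline values were 2.67, 11.2, 3.67 and 3.27 FPKM and DZnep values 3.35, 3.43, 3.55 and 3.62 FPKM, and the groups overlapped. At CT15 they were 2.86, 6.36, 1.65 and 2.92 FPKM against 2.08, 1.94, 1.81 and 1.42 FPKM, and at CT21 1.62, 2.24 and 1.42 FPKM against 1.78, 1.48, 1.49 and 1.37 FPKM, again overlapping.

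Averaged over times Junb fell by 0.51 ± 0.15 (SE, log2(FPKM + 1)) with DZnep (limma, adjusted p = 0.010), the 1 call among 8 tested members where 35.2% of all genes passed. At CT3 it fell by 0.99 ± 0.30 (adjusted p = 0.027), again 1 of 8 against 12.9% of all genes. The CT3 call was lost without DZnep CT3 replicate 4 (-0.74, adjusted p = 0.13) and without saline CT3 replicate 1, 2 or 4 (adjusted p of 0.062, 0.072 and 0.058). The saline library with 11.2 FPKM at CT9, replicate 2, had summed microglia and macrophage markers of 1088 FPKM, against 39.1 to 80.2 FPKM in the other saline libraries and 36.7 to 68.8 FPKM with DZnep, and all 8 of these markers were at 1 FPKM or more in every saline library. Its summed fibroblast markers were 327 FPKM, against 73.1 to 157 FPKM in the other saline libraries, and its astrocyte markers 856 FPKM, against 362 to 697 FPKM. Its Egr2, 0.69 FPKM, was also the highest of the SCN, and the part of these RNAs in its Junb and Egr2 was not tested. Without that library the level difference of Junb was -0.40 (adjusted p = 0.0071). Malat1 also differed between the SCN arms, at 844 to 1246 FPKM with saline and 515 to 925 FPKM with DZnep. Its part in the Junb difference was not tested. At CT9, CT15 and CT21 limma called 0 of the 8 members, also 0 at an unadjusted p under 0.05, where 14%, 8.9% and 4.26% of all genes were called.

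**Figure D4:**
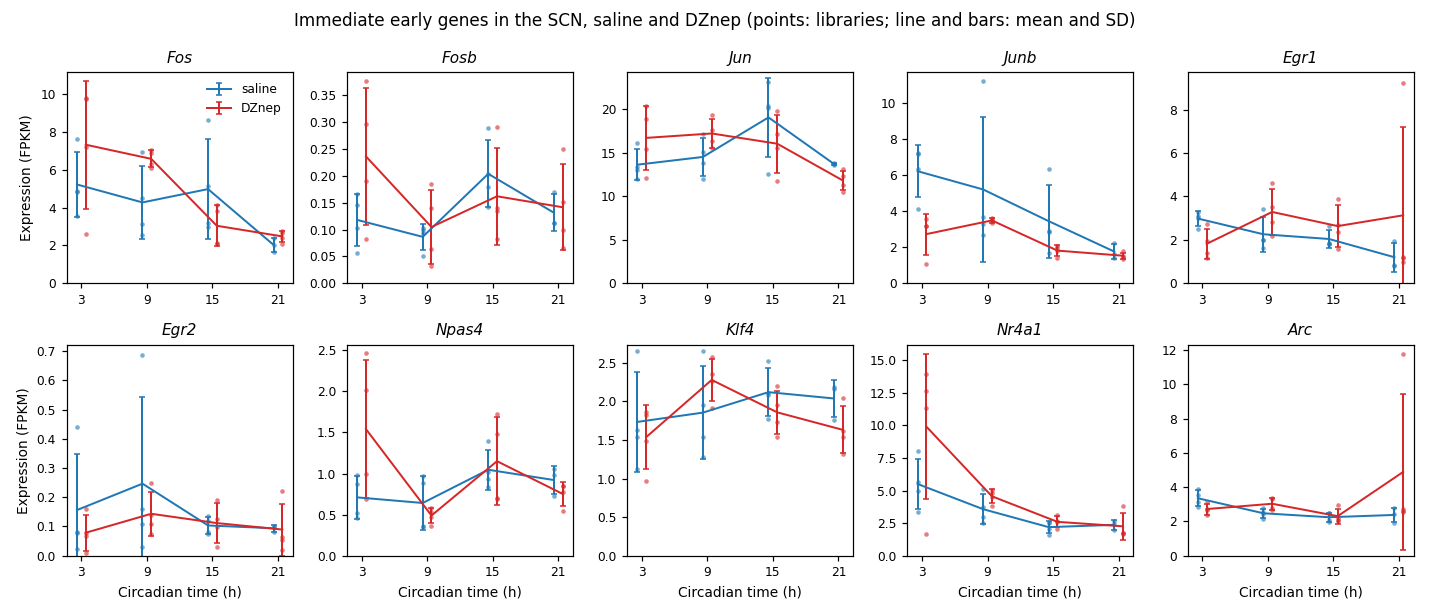
Deposited expression (FPKM, linear axis) of the 10 members in SCN punches at CT3, CT9, CT15 and CT21 from saline (blue) and DZnep (red) mice. Points are libraries, lines join group means and bars are SD (n = 4, and 3 for saline at CT21), with bars cut at 0. Nr4a1 shows 3 DZnep libraries at 11.3 to 14.0 FPKM at CT3 with the fourth at 1.69 FPKM, and Egr1 and Arc show 1 DZnep library at CT21 far above the others.

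In DZnep mice Fos and Nr4a1 had their highest means at CT3 and CT9, which fall in the subjective day. The saline means of Nr4a1 were also highest at CT3 and CT9 (5.50 and 3.57 FPKM). Those of Fos were highest at CT3 and CT15 (5.22 and 4.98 FPKM). Fos in DZnep mice was 9.78, 7.18, 9.75 and 2.59 FPKM at CT3, 6.10, 6.30, 7.04 and 6.88 FPKM at CT9, 2.14, 3.83, 4.12 and 2.08 FPKM at CT15 and 2.68, 2.40, 2.76 and 2.08 FPKM at CT21. In saline mice it was 4.82, 7.63, 3.57 and 4.89 FPKM at CT3, 3.14, 6.92, 2.55 and 4.49 FPKM at CT9, 5.13, 8.64, 3.17 and 2.97 FPKM at CT15 and 2.40, 2.03 and 1.65 FPKM at CT21. The CT9 libraries lay wholly above those of CT15 and CT21 with DZnep, and the saline times before CT21 overlapped one another and lay above CT21.

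Nr4a1 in DZnep mice was 14.0, 11.3, 12.6 and 1.69 FPKM at CT3, and the fourth library was also the lowest of that group in Fos and Junb. It was 4.52, 5.07, 4.82 and 3.82 FPKM at CT9, 3.10, 2.58, 2.65 and 2.06 FPKM at CT15 and 3.82, 1.76, 1.66 and 1.77 FPKM at CT21. In saline mice it was 5.63, 8.05, 3.39 and 4.93 FPKM at CT3, 2.94, 5.15, 2.47 and 3.70 FPKM at CT9, 2.61, 2.03, 1.63 and 2.49 FPKM at CT15 and 2.68, 2.45 and 1.97 FPKM at CT21. At CT3, 3 of the 4 DZnep libraries lay above all saline libraries and the other lay below them.

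Differences among the 4 times passed in DZnep mice for Fos (limma, adjusted p = 0.0088) and Nr4a1 (adjusted p = 0.0078), 2 of 8 where 8.21% of all genes did. In saline mice they passed for Junb (adjusted p = 0.017), 1 of 8 against 14.3% of all genes, and Fos and Nr4a1 did not (0.13 and 0.11). The difference between the courses was called in limma for 0 of the 8, with 1 at an unadjusted p under 0.05, where 0.601% of all genes passed, so no member is shown to cycle in one arm and not in the other. Single libraries moved these counts, and the shares of all genes called without them were not recorded. Without DZnep CT3 replicate 4, Nr4a1 was higher with DZnep at CT3 by 1.11 (adjusted p = 0.0031) and in level by 0.36 (adjusted p = 0.012), Npas4 was higher at CT3 by 0.69 (adjusted p = 0.023), and 4 members changed over the DZnep times. With all libraries the CT3 differences were 0.54 ± 0.34 (SE) for Nr4a1 (adjusted p = 0.33) and 0.53 ± 0.19 for Npas4 (adjusted p = 0.064).

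The DZnep times were called for 5 members without saline CT9 replicate 2 and for 4 without DZnep CT15 replicate 4, and the saline times for 2 without DZnep CT3 replicate 4, for 3 (Arc, Egr1 and Junb) without DZnep CT21 replicate 1 and for 0 without saline CT21 replicate 3. The DZnep CT21 library, replicate 1, had 9.22 FPKM of Egr1 against 0.97 to 1.19 FPKM in its group, 11.8 FPKM of Arc against 2.53 to 2.70 FPKM and 3.82 FPKM of Nr4a1 against 1.66 to 1.77 FPKM. Its Fos and Junb, 2.68 and 1.78 FPKM, lay near the rest, and its summed SCN neuron markers were 305 FPKM against 291 to 318 FPKM. Without it the CT21 difference of Egr1 went from 0.52 to -0.06 and that of Arc from 0.52 to 0.05, neither called in either case.

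The remaining members had no call in the SCN with all libraries. Jun was 10.5 to 23.2 FPKM over all libraries, with a level difference of -0.0046 ± 0.08 (SE) that did not pass. Over the DZnep times the adjusted p was 0.071 for Jun and 0.053 for Npas4. Klf4 was 0.97 to 2.65 FPKM and Npas4, a gene known for its induction in active neurons, 0.35 to 2.46 FPKM, with its highest values, 2.46 and 2.02 FPKM, in DZnep mice at CT3. Fosb stayed at or under 0.38 FPKM and Egr2 at or under 0.69 FPKM, and both fell under the filter. The level differences of Arc, Egr1, Fos, Klf4, Npas4 and Nr4a1 lay between -0.07 and 0.21 (log2), with SE of 0.07 to 0.18, and did not pass.

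Around the members, 1 of 27 other immediate early genes differed in level in the SCN, Ier3, which fell by 0.39, where 35.2% of all genes were called. At CT3, 6 were lower with DZnep, as 7.3% of all genes were, and none higher, and these included the kinase genes Sik1 (-0.65) and Plk2 (-0.50), the AP-1 gene Fosl2 (-1.04) and Btg2 (-0.32). Fosl2 averaged 11.5 FPKM with saline and 5.68 FPKM with DZnep at that time. Over the saline times 13 of the 27 differed, against 14.3% of all genes, and over the DZnep times 10, against 8.21%. Sik1 was the 1 whose courses differed (limma, adjusted p = 0.010), against 0.601% of all genes. Of 13 feedback genes 3 were higher in level, 3 differed over the saline times and 5 over the DZnep times, and Dusp4 means ran from 2.34 to 24.6 FPKM over the groups.

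Over the 31 SCN libraries Fos was, outside the members, most like Nr4a3, a relative of Nr4a1 (Pearson r of log2 values 0.85), then Rgs16, a regulator of G protein signalling with a known daily rhythm in the SCN (0.72), Coq10b (0.71), Rasl11b (0.69) and Bhlhe41, a clock repressor (0.69). Genes with a mean under 5 FPKM and predicted gene models were again not ranked. These libraries share times and animals' arms, so this is a description. Nr4a3 averaged 21.4 ± 3.4 FPKM (SD, n = 4) in saline mice at CT3 and 8.71 ± 1.4 FPKM (n = 3) at CT21. Among the tested members r with Fos was 0.78 for Nr4a1, 0.70 for Junb, 0.57 for Jun and 0.35 for Egr1. It was 0.32 for Npas4, 0.30 for Klf4 and 0.11 for Arc.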

How the data were processed

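RNA-seq libraries from fibroblasts (TruSeq RNA v2) and SCN punches (SMARTer Stranded total RNA pico v2) were prepared per the labels' protocols. Per the submitters' processing notes the tools were bcl2fastq 2.18.0.12, Trimmomatic 0.36, TopHat2 2.1.1 and Cufflinks 2.2.1 with genome build mm10, and neither annotation nor strand setting is given in the sources. The deposited WT and KO values are taken as TPM from their sums, which the headers do not name, and the other tables hold FPKM as deposited. Of the nonzero SCN values 89.7% are whole multiples of 1e-06 divided by 4, and 51.3% of 1e-06 itself; rows of 537 repeated gene names there were averaged.

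Within each experiment libraries were rescaled by median ratios (factors 0.897 to 1.10 in WT and KO). Genes that reached 1 in 3 or more libraries were fitted as log2(value + 1) in limma 3.58.1 (R 4.3.3) with a mean-variance trend and 1 mean per group, and p-values adjusted over all tested genes. Differences among times are joint F tests. The script was tested on simulated data. Members and lists were chosen with earlier results of these data known: all 10 members are named, and of each other list called genes with the 4 smallest adjusted p. No 2 libraries were identical.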

Additional observations from a re-analysis of the deposited data

Results flagged for a closer look

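Each of the 10 members was checked in each SCN group of 4 libraries, 70 sets of values in all. Chance gives about 1 in 20 for 1 set taken alone, but the sets share libraries, so this rate does not apply to their count. In 8 sets 1 library lay far from the other 3. Of these, 3 were in DZnep CT21 replicate 1, with Egr1 at 9.22, Arc at 11.8 and Nr4a1 at 3.82 FPKM. The others were Junb at 11.2 FPKM in saline CT9 replicate 2, Junb at 1.05 FPKM in DZnep CT3 replicate 4, Egr1 at 2.66 FPKM in saline CT15 replicate 1, Arc at 2.96 FPKM in DZnep CT15 replicate 1 and Egr2 at 0.442 FPKM in saline CT3 replicate 2.

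The time courses of WT and KO fibroblasts differed for every member by the interaction test of limma. Adjusted p was 1.1e-16 for Egr1, 3.0e-11 for Egr2, 6.5e-11 for Nr4a1, 1.4e-09 for Fos, 1.9e-07 for Klf4, 2.0e-07 for Npas4, 3.3e-07 for Arc, 3.1e-06 for Junb, 5.3e-06 for Fosb and 1.6e-05 for Jun, at 6 times with 3 libraries each. The change from CT12 to CT24 differed between DZnep and DMSO fibroblasts for Npas4 (adjusted p = 0.00055), Klf4 (0.00056), Nr4a1 (0.0017) and Egr1 (0.019) by the same test. Npas4 passed the filter on low values only through the DMSO libraries of CT24, so its value is a description.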

How the results depend on the processing

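Counts of members called were recomputed for 18 comparisons. The shares of all genes called in the recomputed fits were not recorded, so these counts stand without a background. Of 144 counts under another pseudocount, scaling, filter, time set or model 127 lay within 1.5 times the reported count, as did 450 of 464 with 1 library left out. With genes of mean 5 or more, fewer members enter: 5 were then called for KO level, WT times and the difference of courses, 5 for DZnep level and CT12 in fibroblasts, 4 for CT24, 3 for the DMSO change, and 0 for SCN level, CT3, saline times and DZnep times. A 24 h cosine called 4 in WT, 1 in KO and 4 for the difference of courses. Quantile normalization called 2 in the SCN at CT3 and turned Arc in KO against WT to 0.047 (cause not tested). The median of all genes in that comparison moved from -0.05 to 0.15 with values as deposited. Leaving out the high-Malat1 library left 3 in the DMSO change, since Npas4 then reached the filter value in too few libraries and Jun lost its call. Leaving out the library with high macrophage markers gave 5 over DZnep SCN times, and the cause was not tested. Without 1 library the counts ran from 10 to 10 for KO level and the difference of courses, 9 to 10 for WT times, 4 to 7 for KO times, 7 to 8 for DZnep fibroblast level and CT12, 5 to 7 for CT24, 3 to 5 for the DMSO change, 3 to 3 for the DZnep change and 3 to 4 for their difference. In the SCN they ran from 1 to 2 for level, 0 to 2 for CT3, 0 to 3 for saline times, 2 to 5 for DZnep times, and were 0 for CT9, CT15, CT21 and the difference of courses. Same-numbered libraries of the arms were compared within each time. Their deviations from the group mean correlated between -0.18 and 0.21 in WT and KO. With DMSO and DZnep the range was -0.28 to 0.23, and in the SCN -0.16 to 0.13. In WT and KO the highest values were those of replicate 2 at CT24 (0.21) and CT32 (0.19), libraries with high Malat1 in both arms. Whether replicate numbers mark a shared preparation was not tested. With the replicate block 7 members were called for DZnep fibroblasts at CT12 and 3 over DZnep SCN times, and every other count equalled the reported one.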
